A study of Mus musculus with 6 samples.

Results

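The 1700-series Rik genes of the mouse were first catalogued from RIKEN clones of testis cDNA libraries, and their symbols are clone names such as 1700030C12Rik. The members here are the genes on chromosomes 1 to 19 of the GRCm38 gene table whose symbol has the series' opening digits and the ending Rik, with at least 3 cytosine positions read 10 or more times in all 6 libraries, counted from 1 kb before to 1 kb past the gene. Of 418 such genes, 171 (40.9%) met this rule, out of 20086 genes measured in the same way. They comprised 121 long noncoding RNA (lncRNA) genes, 43 protein-coding genes, 5 transcribed pseudogenes and 2 genes of other RNA. This rule used no methylation level, but it was set with earlier results of these data known.

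DNA methylation had been measured by reduced representation bisulfite sequencing (RRBS) in the right testis of 6 male mice of the KM strain, sampled at body maturity. In 3 mice, here called hemicastrated, surgeons had taken out the left testis before puberty, and 3 mice, which the labels call normal, had sham surgery. Each library came from 1 mouse, the strain and tissue were the same in all, and ages were not given. The 6 libraries held between 64504011 and 78630942 methylation calls.

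In mammals, methyl groups sit mostly on the cytosine of CpG dinucleotides. Promoters dense in CpG are usually free of methylation in all tissues, promoters poor in CpG vary with cell type, and the bodies of genes are usually methylated. Many testis lncRNA genes start back to back with a protein-coding gene and share its CpG-dense promoter, and others start in CpG-poor DNA of their own.

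The starts of the following genes show the contrasts described below. The first is a CpG-dense start shared with the coding gene Ahsa2, the second a CpG-dense start with no coding gene at its end, the third an intermediate start that faces Tnp1, the fourth a methylated start, and the fifth the start whose end window differed most between the groups. Each run is the RefSeq start window of GRCm38.p6, 250 bases before to 50 bases after the start, 5′ to 3′ on the gene's strand, with every CG in capitals.

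1700030C12Rik, chr11:23497511-23497810, plus strand: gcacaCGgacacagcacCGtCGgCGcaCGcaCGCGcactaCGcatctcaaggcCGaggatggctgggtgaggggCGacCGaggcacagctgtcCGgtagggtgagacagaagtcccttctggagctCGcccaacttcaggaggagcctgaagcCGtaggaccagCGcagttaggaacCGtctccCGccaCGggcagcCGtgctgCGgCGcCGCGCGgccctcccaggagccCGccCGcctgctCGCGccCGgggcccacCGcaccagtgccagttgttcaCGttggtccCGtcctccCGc

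1700028E10Rik, chr5:151368425-151368724, plus strand: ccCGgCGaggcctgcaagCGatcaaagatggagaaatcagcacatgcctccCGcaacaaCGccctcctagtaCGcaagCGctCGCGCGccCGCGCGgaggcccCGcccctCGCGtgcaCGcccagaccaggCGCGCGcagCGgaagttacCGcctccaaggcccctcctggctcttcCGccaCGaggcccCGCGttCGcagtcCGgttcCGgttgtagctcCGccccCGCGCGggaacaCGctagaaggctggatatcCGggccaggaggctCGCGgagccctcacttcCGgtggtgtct

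1700027A15Rik, chr1:73015786-73016085, plus strand: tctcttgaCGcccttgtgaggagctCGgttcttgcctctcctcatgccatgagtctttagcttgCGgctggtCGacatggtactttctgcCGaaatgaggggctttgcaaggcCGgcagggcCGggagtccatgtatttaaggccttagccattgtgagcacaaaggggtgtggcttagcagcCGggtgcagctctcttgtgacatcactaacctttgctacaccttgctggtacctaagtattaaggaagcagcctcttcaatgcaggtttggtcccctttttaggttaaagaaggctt

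1700066C05Rik, chr16:79999126-79999425, plus strand: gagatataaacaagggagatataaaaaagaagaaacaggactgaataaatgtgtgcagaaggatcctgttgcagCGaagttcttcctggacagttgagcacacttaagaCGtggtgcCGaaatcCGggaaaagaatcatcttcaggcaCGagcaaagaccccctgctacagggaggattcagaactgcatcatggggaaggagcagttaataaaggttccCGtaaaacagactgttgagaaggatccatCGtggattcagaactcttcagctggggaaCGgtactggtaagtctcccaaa

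1700049E22Rik, chr6:100527150-100527449, plus strand: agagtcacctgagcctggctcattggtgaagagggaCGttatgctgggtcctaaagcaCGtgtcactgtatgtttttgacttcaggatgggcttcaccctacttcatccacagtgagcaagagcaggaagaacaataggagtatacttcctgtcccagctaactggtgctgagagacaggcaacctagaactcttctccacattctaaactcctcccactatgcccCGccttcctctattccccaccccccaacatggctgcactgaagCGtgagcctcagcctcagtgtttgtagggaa

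These windows hold 33, 38, 8, 8 and 4 CpGs in that order. Positions measured inside them averaged 0.333% methylation for 1700030C12Rik (51 positions), 0.540% for 1700028E10Rik (25 positions), 17.7% for 1700027A15Rik (5 positions) and 87.6% for 1700066C05Rik (4 positions), as means over the 6 libraries. In 1700049E22Rik no position inside the 300 bases was measured, and its values come from 4 positions lying from -485 to -420 bp relative to the start.

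RRBS reads short fragments cut at CCGG, so it sees the members unevenly. Over a member's whole span, including 1 kb on each side, between 3 and 178 positions were measured, with a median of 14, against a median of 34 in the other genes. The lowest number of reads over a member's span in a library was 30, and the median of these lowest numbers was 720. At the threshold, 8 members had exactly 3 positions, with a mean level of 84.6%, and 13 genes of the series fell just short with 2 positions, with a mean level of 53.4%. Another 8 had 1 position and 226 had none. Of lncRNA genes outside the series 40.9% were measured, and of coding genes outside it 71.9%. The series' own 40.9% covers all its kinds of gene together. A level is the methylated share of all reads summed over the positions of a window, and each level from whole testis is an average over all cell types of the tissue, so that a share of cells and a share of DNA copies within each cell cannot be told apart. Of 748 measured positions in the members' start windows, 746 (99.7%) lay at a CpG, and these measured positions were 18.9% of the CpG cytosines there.

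Genes of known cell types and imprinted genes were listed beside the members as a check of the tissue label. Ends of the Sertoli cell genes Sox9, Amh and Wt1 were below 1%, near the median of all other ends, and so carry no information on the tissue. Maternally imprinted starts, which in body cells carry methylation on 1 allele and in sperm on none, were at 8.35% (Kcnq1ot1), 8.76% (Peg10) and 8.66% (Plagl1). At Snrpn, Peg3 and Mest the end was not measured, and their whole spans were at 55.7%, 35.4% and 42.8%. Germ cell genes were at 9.55% (Dazl), 12.6% (Tex101), 16.7% (Sycp3) and 20.6% (Mael), while the spermatid gene Prm1 stood at 87.6%. The Leydig cell genes Star and Insl3 were at 97.2% and 21.7% and the macrophage gene Adgre1 at 93.6%. Whole spans alone were measured at Ldhc (germ cells, 95.0%), Gata4 (Sertoli cells, 4.62%) and Cyp11a1 (Leydig cells, 92.7%). The same held for the peritubular muscle genes Acta2 (91.0%) and Myh11 (79.9%). Ddx4, Prm2, Acrv1, Hsd3b1 and the macrophage and blood cell genes Ptprc, Cd68 and Hbb-bs were not measured. The imprinted gene H19 had too few positions. Methylation does not measure expression.

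The CpG-richer ends of genes of the series were mostly unmethylated. For each gene the end with more listed positions, 1 kb either side of the gene boundary, was taken as the CpG-richer end, which was the 5′ end in 72 of the 93 members whose strand is known. Of 120 members with at least 3 positions there, 77 (64.2%) were below 5%, 15 (12.5%) lay between 5% and 20%, 10 (8.33%) between 20% and 80% and 18 (15%) at 80% or more. Their median was 0.641% and their mean 19.2%. Among 14595 other genes 83.3% were below 5% and 7.08% at 80% or more, with a median of 0.579%. The shares below 5% were closer among lncRNA genes. lncRNA members were below 5% in 56 of 86 cases (65.1%), and other lncRNA genes in 63.2% of 2911. Coding members were below 5% in 21 of 29 cases (72.4%), and other coding genes in 88.6% of 11574. RIKEN clones of other testis series gave 64.8% below 5% and 12.5% at 80% or more. At 80% or more stood 15.1% of lncRNA members against 18.9% of other lncRNA genes. For coding genes it was 13.8% of members (4 genes) against 4.03% of the others. The member ends rested on fewer positions, a median of 17 against 29 in other genes. No test was made of these shares.

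**Figure D1:**
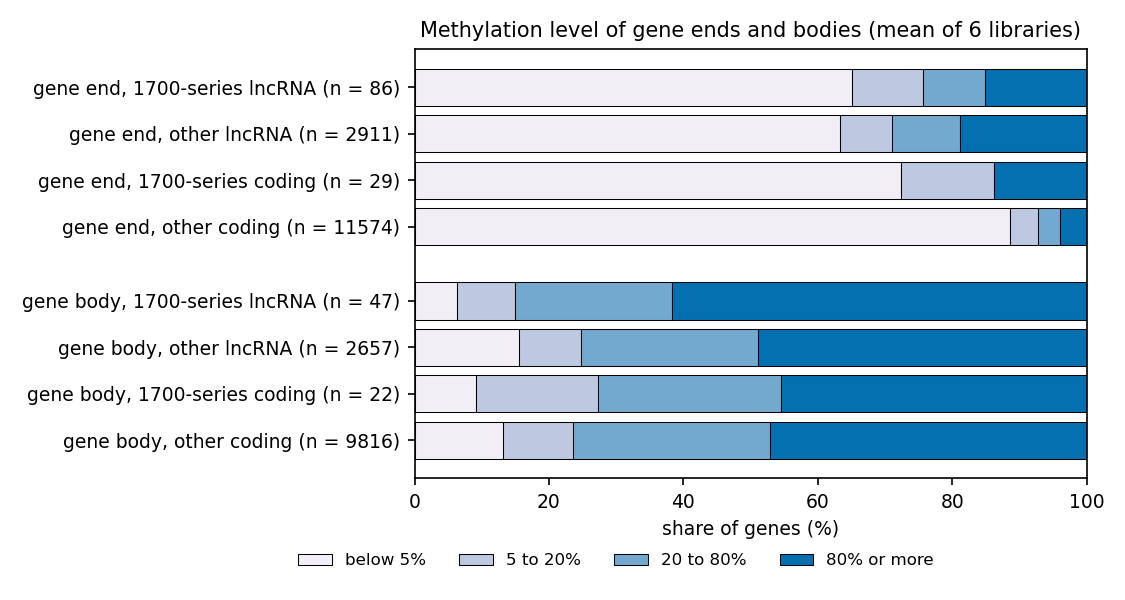
Shares of genes by methylation level at the CpG-richer end (upper 4 bars) and in the body (lower 4 bars), as means of the 6 libraries, with the number of genes in brackets. Ends below 5% made up 65.1% of lncRNA members and 72.4% of coding members, while bodies at 80% or more made up 61.7% and 45.5%.

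Gene bodies, the gene without 1 kb at each boundary, were mostly methylated. Of 72 members with a measured body, 41 (56.9%) were at 80% or more, 18 (25%) between 20% and 80%, 8 between 5% and 20% and 5 below 5%, with a median of 88.9%. In 12536 other genes 47.5% of bodies were at 80% or more and 13.7% below 5%, with a median of 76.5%. Bodies of lncRNA members had a median of 89.3% against 78.4% in other lncRNA genes, and those of coding members 69.8% against 75.9% in other coding genes. The member bodies rested on fewer positions, a median of 8.5 against 15.

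Levels were also read in 250 bp bins along genes of known strand. Member means were 5.02% from 500 to 250 bp before the 5′ boundary (29 genes), 10.1% in the last 250 bp before it (33 genes) and 3.94% from 500 to 750 bp after it (11 genes). They were higher, at 21.8%, from 750 to 500 bp before the boundary (17 genes) and, at 17.6%, from 250 to 500 bp after it (23 genes). In the 250 bp after it, 34 members with known strand averaged 13.2% with a median of 0.540%, and 73.5% of them were below 5%. The same bin averaged 15.5% in other lncRNA genes and 3.16% in other coding genes. From 1500 to 1750 bp past the 5′ boundary the mean over 7 members was 52.5%. In that bin other lncRNA genes had 44.7% and other coding genes 24.1%. Bins were set by distance alone, so in a short gene they can lie beyond its far end. Some member bins away from the boundary hold only 5 genes, and their means differ widely from bin to bin.

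**Figure D2:**
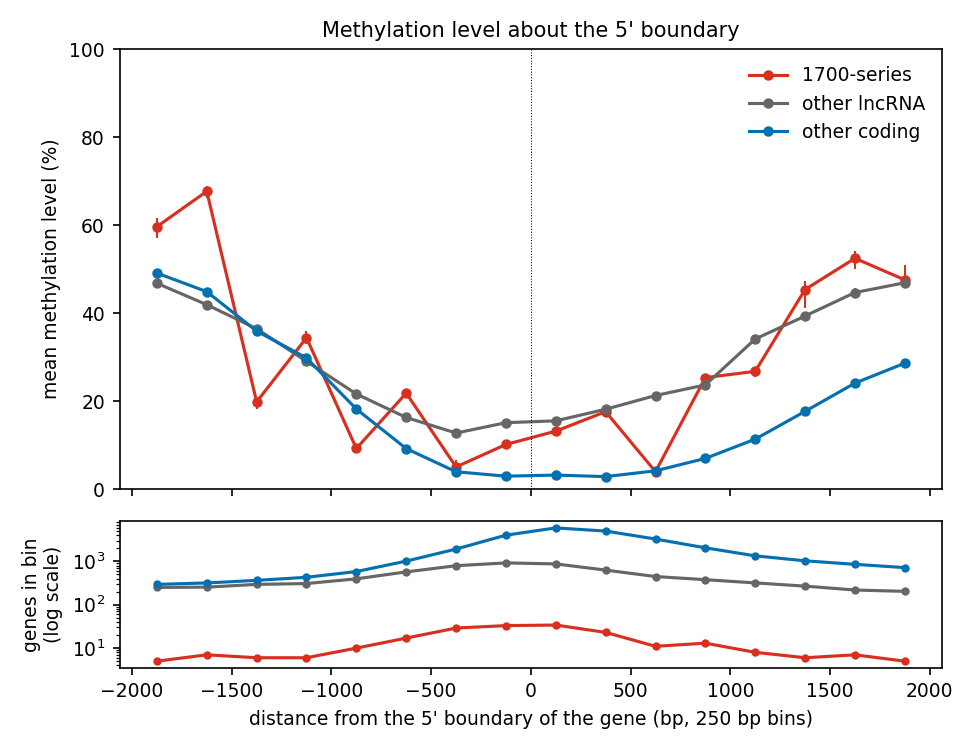
Mean methylation level in 250 bp bins about the 5′ boundary for genes of known strand (upper panel, vertical lines from the lowest to the highest library) and the number of genes in each bin (lower panel, log scale). The 1700-series genes stand near other lncRNA genes within 250 bp after the boundary (13.2% against 15.5%), and other coding genes stand lower (3.16%).

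Ends that hold a coding gene's boundary were mostly unmethylated. In 52 of the 120 measured ends the window held the boundary of a protein-coding gene outside the series, and 47 of these (90.4%) were below 5%, with a median of 0.516%. Without such a boundary 30 of 68 (44.1%) were below 5%, with a median of 9.57%, 14 lay between 5% and 20%, 9 between 20% and 80% and 15 at 80% or more. The lncRNA members gave 92.5% of 40 below 5% with a coding boundary and 41.3% of 46 without. Other lncRNA genes gave 92.1% of 1205 with such a boundary and 42.8% of 1706 without. Where a coding gene on the opposite strand starts within 1 kb of the member's start, 33 of 34 measured ends were below 5%, and the remaining one was 1700027A15Rik.

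The 5 lowest ends with at least 10 positions all held a coding gene's boundary. They were 1700022H01Rik with Sar1a, a GTPase of vesicle coats, 1700120C14Rik with Mcrs1, a nucleolar protein, 1700022N22Rik with Capn15, a calpain protease, 1700030C12Rik with Ahsa2, a relative of an Hsp90 activator, and 1700123M08Rik with Pdp1, a phosphatase of the pyruvate dehydrogenase complex. At 1700030C12Rik (gene ID 72246), over 75 positions, the hemicastrated libraries had 0.358%, 0.442% and 0.448% and the sham libraries 0.390%, 0.280% and 0.197%. The means of the 5 ends ran from 0.0944% to 0.365%, none above the share of methylated calls on mitochondrial DNA (0.478% to 0.617%), which is taken as nearly unmethylated, so their order lies within that background. The end of 1700120C14Rik was at 0.211% within 1 kb and at 70.0% when the window reached 2 kb.

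Among ends with at least 10 positions, the highest levels were found at 1700041B01Rik, inside the span of Elfn2, at 95.5% ± 0.714 (SD over 6 libraries, 27 positions at its 3′ end), 1700123J17Rik at 91.8% ± 3.30 (14 positions at its 5′ end, near a boundary of the kinase gene Sbk1), 1700067P10Rik at 81.9% ± 2.77 (10 positions, 3′ end) and 1700055K11Rik at 34.4% ± 22.7 (10 positions, 3′ end). The next was 1700012C14Rik (gene ID 69337), a lncRNA gene of chromosome 6, at 19.2% ± 1.52 over 34 positions at its 5′ end. Its hemicastrated libraries had 20.2%, 18.6% and 18% and its sham libraries 17.8%, 19.1% and 21.8%, so the 6 mice lay close together and the groups overlapped. With every position counted equally its level was 11.3%, so its rank rests on the weighting by reads. Among ends with fewer positions, 1700018B08Rik and 1700030M09Rik, neighbours on chromosome 8 that share their 4 positions, were both at 96.2% ± 0.720.

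Between these extremes stood 15 ends with means from 5% to 20%, 14 of them without a coding boundary. Examples were 1700030C10Rik at 9.46% ± 1.59 over 44 positions, 1700003M07Rik at 9.68% ± 1.56 over 30, the coding gene 1700020D05Rik at 13.7% ± 2.24 over 14 and the coding gene 1700029P11Rik at 16.7% ± 3.62 over 18 (SD over 6 libraries). Single libraries of the 15 ends ran from 3.87% to 28.4%. The class held 12.5% of the members' ends against 4.99% of all other genes and 11.4% of RIKEN clones of other testis series. It held 10.5% of lncRNA members against 7.83% of other lncRNA genes, and 13.8% of coding members (4 genes) against 4.2% of other coding genes.

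The CpG content of the start went with the level at the 5′ end. A start window was found for 81 of the 82 members with a measured 5′ end. The CpG ratio, which is the number of CG in the 300 bases over the number that their C and G content would give, was 0.6 or more in 46 of the 81 (56.8%), and in 49.5% of other lncRNA genes and 77.0% of other coding genes. Of these 46, 43 (93.5%) were below 5% and 0 were at 20% or more. Of the 35 with a lower ratio, 13 (37.1%) were below 5% and 11 (31.4%) at 80% or more, with a median of 17.1%. Other lncRNA genes with a lower ratio had 42.0% below 5% and a median of 15.4%, and other coding genes 73.1% and 0.757%. Start windows held a median of 27.5 CpGs in members below 5%, 9.5 in members from 5% to 20% and 5 in members at 80% or more, where none held over 8. The whole measured set could not be compared in this way, because a start window was found for 77.8% of the 171 members.

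**Figure D3:**
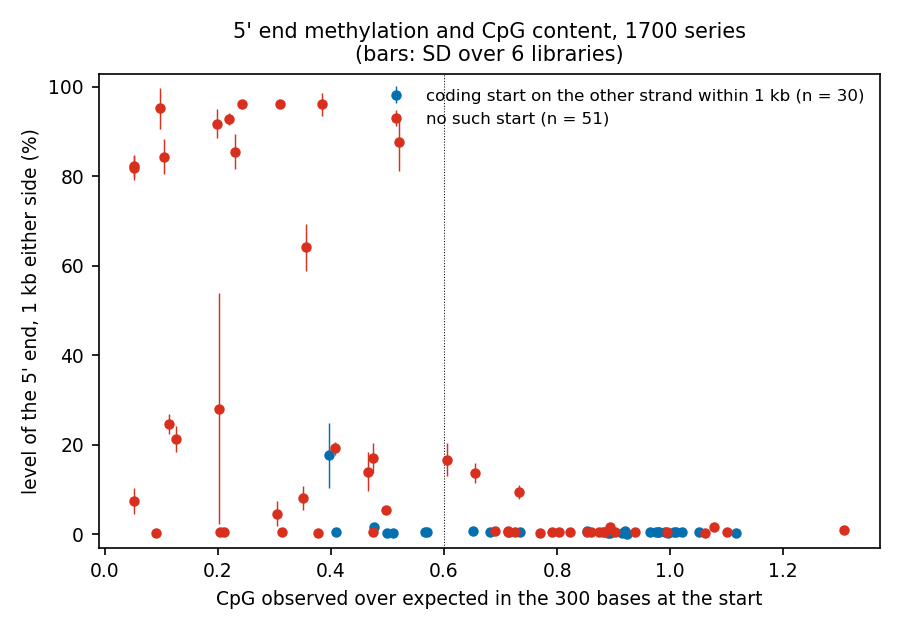
Methylation level of the 5′ end (mean of 6 libraries, bars SD) against the CpG ratio of the 300 bases at the start for 81 members, with members that face a coding start on the other strand in blue. At a ratio of 0.6 or more, right of the dotted line, 43 of 46 members were below 5%.

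Exceptions among starts with a ratio of 0.6 or more were 1700030C10Rik (ratio 0.733, 29 CpGs), 1700020D05Rik (0.655, 14 CpGs) and 1700029P11Rik (0.605, 12 CpGs), the 3 above 5%. At lower ratios levels below 5% were no exception, with 13 of 35 members there. An example was the coding gene 1700003F12Rik, with 2 CpGs in its start window (ratio 0.0909), at 0.389% over 32 positions within 1 kb. These genes were chosen after their values were seen.

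In single genes the body usually stood above the end. Both were measured in 26 members. The body was higher in 19 (73.1%), by over 20 points in 14, and lower by over 20 points in 4, with a median difference, body minus end, of 34.7 points. Other genes had a higher body in 88.7% of 7605 and a median difference of 70.7 points. The lncRNA members had a higher body in 73.3% of 15 and a median difference of 48.3 points, against 71.7% of 835 and 9.45 points in other lncRNA genes. The coding members had 80% of 10 and 9.77 points, against 90.8% and 75.2 points in other coding genes. No test was made of these shares, and 26 genes are few.

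The widest gaps of the usual kind were at 1700072I22Rik, 1700086P04Rik, 1700017B05Rik and 1700028E10Rik. In 1700072I22Rik the end, which holds a boundary of Rprml, was at 0.477% ± 0.145 and the body at 95.7% ± 1.29 over 6 positions (SD over 6 libraries). In 1700086P04Rik the 5′ end, shared with the ubiquitin ligase gene Rnf19b, was at 0.555% ± 0.103 over 163 positions and the body at 93.5% ± 2.28 over 4. The coding gene 1700017B05Rik had 0.459% ± 0.186 at its 5′ end and 92.8% ± 0.998 in its body, over 14 positions. 1700028E10Rik, whose CpG-dense start is shown above and which overlaps Stard13, had 0.396% ± 0.259 and 91.9% ± 2.13, the latter over only 3 positions.

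In 7 of the 26 members the body was below the end, in 4 of them by over 20 points. The coding gene 1700019D03Rik (gene ID 67080, chr1:52922324-52992657, minus strand) had 84.9%, 88.9% and 84.1% at its annotated 5′ end in hemicastrated and 82.7%, 91.5% and 81.3% in sham libraries. Its body had 0.297%, 1.01% and 0.693% in hemicastrated and 0.328%, 0.605% and 0.512% in sham libraries, over 17 positions. All 6 mice thus showed a methylated outer end and an unmethylated stretch inside. 1700018B08Rik had 96.2% ± 0.720 at its end and 16.5% ± 3.61 in its body (SD over 6 libraries, 19 positions). With the window widened to 2 kb its difference, body minus end, went from -79.8 to -49.8 points. 1700016C19Rik had 74% ± 11.7 and 24.9% ± 5.62, and 1700047F07Rik, which overlaps the meiosis regulator gene Dmrtb1, had 90.0% ± 1.37 and 50.3% ± 10. Their bodies rested on 4 and 15 positions.

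**Figure D4:**
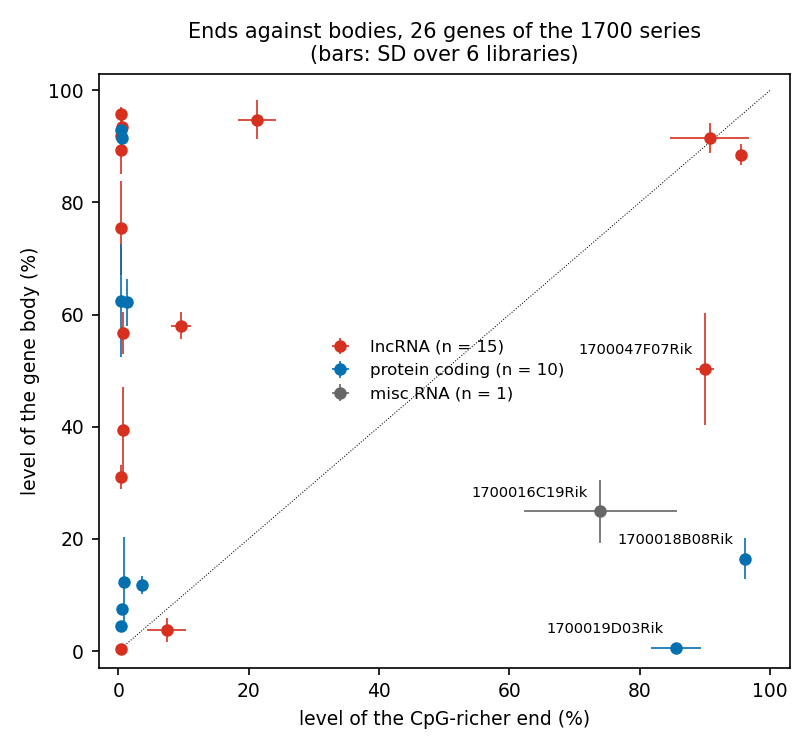
Methylation level of the gene body against that of the CpG-richer end for the 26 members with both measured (means of 6 libraries, bars SD), with the dotted line marking equal levels. Most members lie at the upper left, with an unmethylated end and a methylated body, and the 4 named genes lie far below the line.

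RefSeq lists further starts inside some of these genes. For 1700019D03Rik the outer start window and the most CpG-dense of the inner starts, 39817 bp inside the gene, are set out below, and for 1700018B08Rik the outer start window and a start 2385 bp inside, in the same format.

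1700019D03Rik outer start, chr1:52992608-52992907, minus strand: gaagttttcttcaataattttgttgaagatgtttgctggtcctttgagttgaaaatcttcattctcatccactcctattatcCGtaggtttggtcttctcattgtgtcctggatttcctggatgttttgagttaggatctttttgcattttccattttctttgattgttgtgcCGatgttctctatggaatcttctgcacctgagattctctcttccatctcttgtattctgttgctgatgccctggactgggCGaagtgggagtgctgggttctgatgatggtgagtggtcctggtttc

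1700019D03Rik inner start, chr1:52952791-52953090, minus strand: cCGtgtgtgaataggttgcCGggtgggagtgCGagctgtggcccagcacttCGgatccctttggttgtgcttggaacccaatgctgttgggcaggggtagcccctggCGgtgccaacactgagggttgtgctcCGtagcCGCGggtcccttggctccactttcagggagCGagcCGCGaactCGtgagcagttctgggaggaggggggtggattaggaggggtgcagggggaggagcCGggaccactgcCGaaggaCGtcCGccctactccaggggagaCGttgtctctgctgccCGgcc

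1700018B08Rik outer start, chr8:121544279-121544578, minus strand: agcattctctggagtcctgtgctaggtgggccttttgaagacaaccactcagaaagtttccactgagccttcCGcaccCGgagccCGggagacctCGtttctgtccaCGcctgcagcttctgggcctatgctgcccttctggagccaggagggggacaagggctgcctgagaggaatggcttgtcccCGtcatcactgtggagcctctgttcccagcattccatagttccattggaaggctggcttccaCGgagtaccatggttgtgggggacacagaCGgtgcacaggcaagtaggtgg

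1700018B08Rik inner start, chr8:121541905-121542204, minus strand: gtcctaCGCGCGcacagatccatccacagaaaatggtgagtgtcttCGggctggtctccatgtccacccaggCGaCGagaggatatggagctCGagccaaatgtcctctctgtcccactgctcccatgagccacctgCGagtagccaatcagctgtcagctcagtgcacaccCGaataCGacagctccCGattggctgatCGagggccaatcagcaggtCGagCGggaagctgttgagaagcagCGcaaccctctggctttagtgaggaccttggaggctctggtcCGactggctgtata

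The outer window of 1700019D03Rik holds 3 CpGs and the inner one 18. No position inside its outer window was measured, and its end values come from other positions within 1 kb of the boundary. The 17 positions within 1 kb of its inner start averaged 0.601%. The outer window of 1700018B08Rik holds 8 CpGs and the inner one 16, and 18 positions within 1 kb of the inner start averaged 13.8%. In both genes these positions of the body lay near an inner start. The bodies of 1700016C19Rik and 1700047F07Rik had no position within 1 kb of a listed start.

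Low member bodies were then set against annotated starts, leaving out genes of chromosome 18. Of 12 member bodies below 20%, 8 (66.7%) had a position within 1 kb of a RefSeq start, of the gene itself in 5 and of another gene in 4. Those with a start of their own were 1700019D03Rik, 1700125H20Rik, 1700049J03Rik, 1700067K01Rik and 1700018B08Rik. Those near another gene's start included 1700034H15Rik, whose body at 0.324% lay at Slc30a1, a zinc exporter. Of 18 bodies from 20% to 80% 3 had such a start, and of 40 bodies at 80% or more 2 did. In other genes the shares were 51.6%, 32.9% and 6.95%. The body of 1700048O20Rik, at 3.81% ± 2.12 over 6 positions, was low with no listed start nearby.

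The spread between mice was wide at some members. The SD of the span level over the 6 libraries had a median of 1.66 points in the series and 1.44 in other genes. It was 1.66 in other lncRNA genes and 1.64 in RIKEN clones of other testis series. The SD passed 5 points in 29 members (17.0%), in 9.53% of other genes, in 15.3% of other lncRNA genes and in 18.2% of those clones. For spans between 20% and 80% the median SD was 5.16 points in members, with a median of 11.5 positions, and 3.40 in other genes, with 34 positions. The number of positions behind a value thus differed along with the spread, and its part in the spread was not tested. The 5 most variable members were 1700049E22Rik, 1700055K11Rik, 1700001K19Rik, 1700049L16Rik and 1700066J03Rik.

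1700049L16Rik, a transcribed pseudogene of chromosome 10, had 39.4%, 26.6% and 21.1% in hemicastrated and 5.26%, 25% and 45.5% in sham libraries over 4 positions, so both extremes were sham mice. 1700066J03Rik had 17.9%, 16.4% and 53.0% in hemicastrated and 17.3%, 23.2% and 19.1% in sham libraries, so hemicastrated replicate 3 stood apart. Its SD of 14.2 points was 0.280 when every position counted equally, a calculation chosen after seeing the data. Its span joins a methylated end of 8 positions (96.3% ± 0.827, SD over 6 libraries) to unmethylated positions, and the 2 calculations differ only in how reads weight them.

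Hemicastrated and sham-operated mice were then compared at the members, which asks whether removal of the left testis went with other methylation of the right one. No member was called. edgeR's quasi-likelihood test, adjusted by Benjamini-Hochberg over all genes, called 0 of 171 member spans, 0 of 120 ends and 0 of 72 bodies, and it called 0% of all 20077 spans, 14696 ends and 12606 bodies tested. At an unadjusted p below 0.05 by edgeR stood 12 member spans (7.02%, against 3.14% of all spans), 6 ends (5%, against 4.42%) and 5 bodies (6.94%, against 3.45%). limma on log2 ratios called 0 members, with 15 spans, 7 ends and 6 bodies of the series at an unadjusted p below 0.05, beside 3.88%, 4.91% and 4.11% of all those tested. The shares stand on 12, 6 and 5 genes, from windows with fewer positions than in other genes.

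Over the whole series the group means differed by less than 1 SD. The mean level of its ends was 19% ± 0.649 in the hemicastrated group and 19.4% ± 0.486 in the sham group, and that of its bodies 66.1% ± 0.816 and 66.3% ± 0.937 (SD, n = 3 each). Ends had a higher group mean in hemicastrated mice in 69 members and a lower one in 51, a share of 57.5% higher against 55.5% in other genes. Bodies had a higher group mean in 31 and a lower one in 41, a share of 43.1% higher against 46.6% in other genes. The 3 libraries of one group lay wholly above those of the other in 18 spans (11 higher and 7 lower in hemicastrated mice, 10.5% of members against 7.04% of all genes), 11 ends (7 and 4, 9.17% against 9.55%) and 10 bodies (5 and 5, 13.9% against 7.89%). In RIKEN clones of other testis series these shares were 10.5% of spans, 10.8% of ends and 10.5% of bodies. In other lncRNA genes they were 7.81%, 8.73% and 7.75%. Group means over 10 points apart were found in 6 spans (3.51%, against 0.939% of other genes and 2.08% of other lncRNA genes).

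At gene ends the smallest p among lower levels was that of 1700049E22Rik (gene ID 73395), a lncRNA gene at chr6:100527400-100533426. Its 5′ end was at 14.1%, 8.80% and 11.6% in hemicastrated and at 54.9%, 67.0% and 12.4% in sham libraries. The 3 hemicastrated mice and sham replicate 3 were low and the other 2 sham mice high, so the groups overlapped. The difference, hemicastrated minus sham, was -33.3 points (edgeR adjusted p = 0.998, unadjusted 0.000968, lower in 3 of 3 hemicastrated mice than in 2 of 3 sham mice). Without sham replicate 3 it was -49.5 points with an edgeR adjusted p of 0.00325, and over all alternatives the adjusted p ran up to 0.9997. Without sham replicate 2 it was -22.1 points. Its 4 positions form 2 pairs of neighbouring bases, as the strands of 2 CpGs do, and all 4 had a higher level in sham replicates 1 and 2 than in any other library.

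1700055K11Rik (gene ID 102640035), a lncRNA gene at chr2:172860332-172863123, was measured at its 3′ end, at 18.5%, 9.90% and 34.9% in hemicastrated and 34.4%, 33.2% and 75.8% in sham libraries. Hemicastrated replicate 2 was the lowest and sham replicate 3 the highest, and the groups overlapped. The difference was -26.7 points (edgeR adjusted p = 0.998, unadjusted 0.00630), and -12.7 points without sham replicate 3. The 10 positions, all within 100 bp of the boundary, had similar levels within each mouse.

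At 1700066C05Rik, with the methylated start shown above, the levels were 86.4%, 77.0% and 87.8% in hemicastrated and 89.0%, 96.8% and 88.5% in sham libraries. The groups did not overlap, and the difference of -7.70 points (edgeR adjusted p = 0.998, unadjusted 0.0660) was -4.33 without hemicastrated replicate 2 and -5.01 without sham replicate 2.

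Among ends with higher levels in hemicastrated mice, 1700027A15Rik (gene ID 69449) had the smallest p. It faces Tnp1, the transition protein that replaces histones in spermatids, and shares with it the 5 measured positions. The levels were 20.4%, 28.4% and 21.7% in hemicastrated and 13.1%, 14.3% and 8.20% in sham libraries. Every hemicastrated mouse lay above every sham mouse, by a difference of means of 11.6 points (edgeR adjusted p = 0.998, unadjusted 0.00739). 1700048O20Rik had 11.1%, 10.9% and 7.80% against 3.87%, 5.71% and 5.50% at its 5′ end over 5 positions, again without overlap (edgeR adjusted p = 0.998, difference 4.88 points, and 1.52 points with a 2 kb window). 1700039E22Rik, inside the gene of the kidney and ear transcription factor Pax2, had 1.15% ± 0.745 against 0.578% ± 0.0585 (SD, n = 3 each), and its difference of 0.572 points was 0.154 without hemicastrated replicate 2 and 0.869 without hemicastrated replicate 3.

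In gene bodies the widest member difference was at the coding gene 1700001K19Rik (gene ID 66323, chr12:110667688-110682662, minus strand). Its hemicastrated libraries had 70.7%, 93.1% and 67.0% and its sham libraries 48.4%, 41.0% and 46.8%, over 4 positions. The groups did not overlap, and the difference was 31.5 points (edgeR adjusted p = 0.99999, unadjusted 0.00600). It sat in 1 of 2 pairs of neighbouring positions. At position 110669940 the hemicastrated libraries had 57.1%, 92.0% and 36.8% and all 3 sham libraries 0%, with 16 to 57 reads a library, while at position 110669846 all 6 libraries were between 75.9% and 100%.

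1700072B07Rik had 96.3% ± 0.679 in the hemicastrated group and 92.5% ± 1.57 in the sham group over 6 positions, and the coding gene 1700016D06Rik 94.6% ± 0.489 and 93.4% ± 0.328 over 10 (SD, n = 3 each). Both had groups that did not overlap, with differences of 3.87 and 1.22 points (edgeR adjusted p = 0.99999 each). With positions unweighted the latter was 0.65 points.

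On the lower side stood 1700128A07Rik, 1700082M22Rik and 1700041A01Rik. 1700128A07Rik, a lncRNA gene of chromosome 14, had 85.6%, 89.5% and 89.8% against 93.8%, 93.9% and 93.8% over 9 positions, without overlap (edgeR adjusted p = 0.99999, unadjusted 0.00235, difference -5.49 points). 1700082M22Rik, whose unmethylated start is shared with Ciao2b, a gene of iron-sulfur protein assembly, had 62.2%, 75.5% and 68.6% in its body against 80.8%, 82.1% and 83.0%, also without overlap (difference -13.2 points, edgeR adjusted p = 0.99999). One of its 7 positions, 104652562 of chromosome 8, was at 0% in all 3 hemicastrated libraries and at 44.8%, 52.5% and 30.8% in the sham libraries, with 23 to 41 reads.

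1700041A01Rik had 92.8%, 69.4% and 90.7% against 92.3%, 93.8% and 96.3% over 3 positions, and here the groups overlapped. The low value of hemicastrated replicate 2 came from position 88294450 of chromosome 5, at 0% in that mouse and between 86.7% and 96.8% in the other 5. Without that library the difference went from -9.85 to -2.39 points. After bisulfite treatment a C-to-T variant reads as an unmethylated cytosine, genotypes were not analysed here, and their part in these single positions was not tested.

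**Figure D5:**
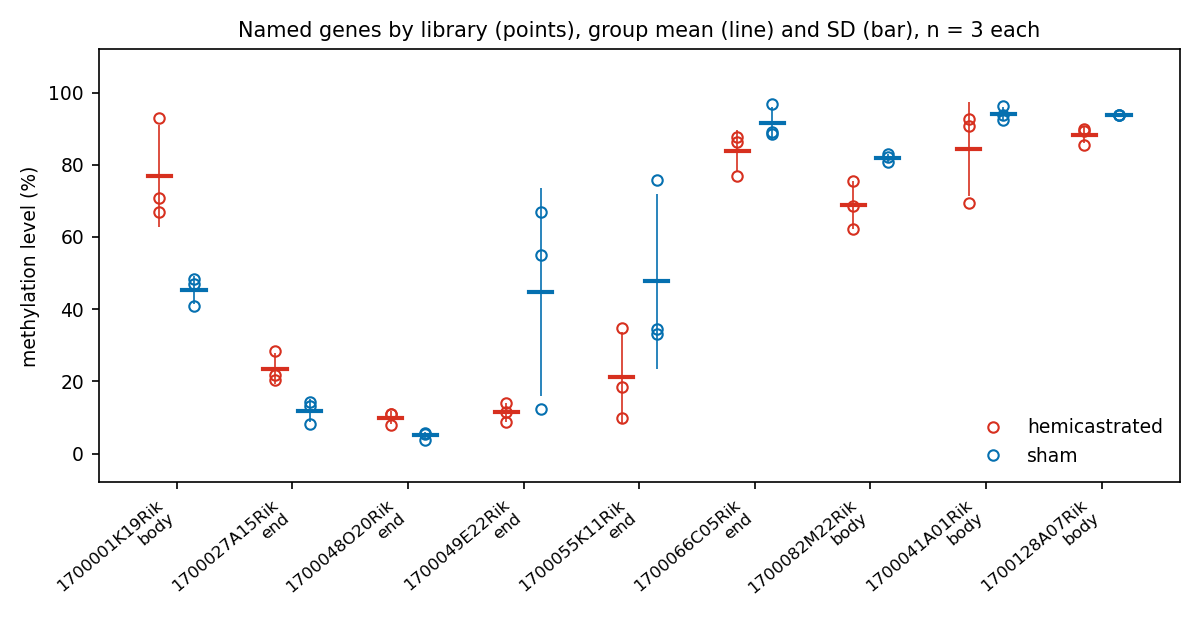
Methylation level of 9 named members by library, at the CpG-richer end or in the body as labelled (open circles, 3 mice a group; thick lines, group means; bars, SD). The groups overlap at 1700049E22Rik, 1700055K11Rik and 1700041A01Rik and lie apart at the other 6, and none of the 9 passed the adjusted test. The 9 were picked for small p, which favours groups that lie apart. Over all genes the groups lay apart in 9.55% of ends and 7.89% of bodies.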

How the data were processed

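The submitters' processing notes list TopHat2 2.0.11 and Bismark with GRCm38, and do not state the role of TopHat2 for RRBS reads. For the Bismark version, trimming and duplicate removal the labels give no detail. Each library's table, as deposited by the authors, holds methylated and unmethylated read counts per cytosine position, and the percent methylation, which was not used. Any PCR copies left in the tables are counted as reads, and the counts would then overstate independent molecules.

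Only positions reaching 10 reads in every library entered (930333 on chromosomes 1 to 19). Counts were summed over each gene with 1 kb on each side, over 1 kb either side of the CpG-richer boundary, and over the body, each with at least 3 positions. The richer boundary was used because the start table, the source of strands, gives one for 79.2% of the series' 418 genes, under the 80% required. Levels are the methylated share of summed reads. Groups were compared with edgeR 4.0.16 (quasi-likelihood test, library terms plus methylation by group, R 4.3.3) over all genes of the members' 4 biotypes, with Benjamini-Hochberg adjustment at 0.05; limma 3.58.1 was an alternative. The fit was tested on simulated data. Exact permutation of 3 against 3 cannot go below p = 0.1. Start windows and gene models come from RefSeq, GRCm38.p6 and GRCm38.

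Named genes are the 3 members with the smallest p in each direction for spans, ends and bodies, the 5 highest and 5 lowest ends with at least 10 positions, the 4 largest and 4 smallest body minus end differences, the 5 most variable spans, and 1700049E22Rik. The last was named by an earlier result of these data, and the members and lists were chosen with such results known. Alternatives were coverage, position minimum, window, prior, limma, replicate block, leaving out each library and positions shared with other genes.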

Additional observations from a re-analysis of the deposited data

How the results depend on the processing

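With 1 library left out in turn, between 0 and 1 genes were called for spans, ends and bodies alike. Single calls over all genes came without hemicastrated replicate 3 (1 span, 1 end), without sham replicate 3 (1 span, 1 end, both 1700049E22Rik) and without sham replicate 2 (1 body). The members' calls thus ranged from 0 to 1 for spans and ends and were 0 for bodies. A 2 kb window called 1 end, not of the series. With the replicate number as a block, 6 ends were called, of which 1 was a member, 1700055K11Rik (edgeR adjusted p = 0.0241, and between 0.0241 and 0.9997 over its alternatives). The numbers were not treated as pairing the mice: deviations of same-numbered libraries correlated at 0.07, 0.179 and 0.082 for ends, each the highest for its number, and at no more than 0.04 for spans. The robust prior and limma called 0.

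The mean member end of 19.2% was 14.6% at 20 reads, 13.7% at 5 positions (106 genes), 20.3% with 2 kb windows (130 genes) and 33.3% over the 39 ends with no position shared with a gene outside the series. The mean body of 66.2% was 62.0%, 61.6% and, with no shared position, 69.4% (52, 53 and 44 genes). These settings change which genes are measured.

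The span difference of 1700049L16Rik turned to -1.41 points without hemicastrated replicate 1 and to -6.21 without sham replicate 1, and ranged up to 13.9 with 1 library left out. That of 1700066J03Rik turned to -2.69 without hemicastrated replicate 3 and to -0.26 with positions unweighted, and ranged up to 15.6 with 1 library left out. The end level of 1700012C14Rik was 11.3% with positions unweighted and 22.4% at 20 reads. The causes of these shifts were not tested. Low coverage limits windows with few positions, and 10 reads cannot resolve a difference of a few points at 1 position.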
